A study of Homo sapiens with 10 samples.

Results

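Collagens are the triple-helical proteins of the extracellular matrix. Each molecule winds together 3 alpha chains, which may be copies of 1 gene product or products of different genes, and the family is divided by the structures its members build. Type IV chains form the sheet of the basement membrane, fibril-forming chains build the fibres of connective tissue, fibril-associated chains decorate those fibres, short-chain collagens form further networks, type VI forms beaded filaments, type VII forms the anchoring fibrils below epithelia, and transmembrane collagens span the plasma membrane. Mammary epithelial cells rest on a type IV network and are fastened to it by hemidesmosomes, of which the type XVII chain is a part. The genes described are those with a symbol of the form COL, number, A, number and at least 1 transcript typed as protein-coding. There were 44 of them among the 60168 genes of the deposited tables, and all 44 were quantified in each of the 10 libraries.

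The cells were MCF10A, a non-tumorigenic human mammary epithelial cell line, and mRNA sequencing was performed in 3 groups. MCF10A-control cells were transduced with an empty vector (4 libraries), MCF10A-TRAM2 cells with a vector for TRAM2, a component of the translocon that passes secretory proteins into the endoplasmic reticulum (4 libraries), and MCF10A-YAP5SA cells with a vector for an activated form of YAP, a transcription co-factor that works with TEAD proteins (2 libraries). The last group is labelled only as YAP overexpression, and the activated form is named in the methods of the study. The comparisons ask what either vector did to the transcripts of the cells, and each vector was given to the same line, so the groups describe forced expression in cultured cells without stroma. In the study's methods YAP was cloned into a pLenti backbone with BlastR and TRAM2 into a pCDH backbone with Puro. The backbone of the empty vector is not named there. Backbone and selection drug may thus differ between groups along with the expressed gene. All groups grew in the same serum-containing medium with EGF, insulin and hydrocortisone and were harvested before confluence, once drug selection was over. In its protein experiments the study uses the control name also for cells with an inactive YAP, whereas the labels of these libraries give the empty vector.

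Estimated counts summed to between 8489854 and 11662636 per control library, between 13170439 and 16314438 per MCF10A-TRAM2 library, and to 12477031 and 13556672 in the MCF10A-YAP5SA libraries. Control A and C differed by no more than sampling noise over genes with whole counts in all libraries (chi-square per degree of freedom 1.003), as did B and D (0.9993), whereas the other control pairs reached 1.157 to 1.24. Each of these 2 pairs was therefore summed and counted as 1 sample, which leaves 2 control, 4 MCF10A-TRAM2 and 2 MCF10A-YAP5SA samples. Over the genes whole in both libraries of a pair, B and D gave 1.048. The design text of the series speaks of 3 biological replicates in each condition, which does not match the 4, 4 and 2 libraries, and no label says which libraries came from separate cultures. The p-values therefore measure only the spread between these samples, which may be technical. Libraries A and B were named with one sequencing run and C and D with another, and both MCF10A-YAP5SA libraries belong to the first run, so that run and group overlap. MCF10A-TRAM2 library B stood apart from the other 3 of its group on the second principal component. TRAM2 itself stood at 28.37 and 28.88 CPM (counts scaled to library size and between samples by the TMM method) in control, at 390.3, 611.4, 249.9 and 460.3 in MCF10A-TRAM2 and at 242.1 and 247.1 in MCF10A-YAP5SA. YAP1 stood at 187 CPM in both control samples, between 181 and 196.1 in MCF10A-TRAM2 and at 337.2 and 342.2 in MCF10A-YAP5SA. The epithelial and basal markers KRT5, KRT14, CDH1, CDH3, EPCAM and TP63 together gave 2451 and 2458 CPM in control, 2273 to 2506 in MCF10A-TRAM2 and 1061 and 1088 in MCF10A-YAP5SA. In the last group 5 of the 6 were lower and KRT14 was not called, where 14.1% of all genes tested were lower. Most of these sums was KRT5, at 1646 and 1653 CPM in control and 845.7 and 873.7 in MCF10A-YAP5SA. TP63 was at 0.084 and 0.155 CPM in MCF10A-YAP5SA and passed the test's filter on low counts through the other groups.

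Of the 44 collagen genes, 15 reached a mean of 1 TPM (a level per transcript length, scaled to the library) in at least 1 group, and 29 stayed under 1 TPM in every group. Enough counts for a test were present for 19 genes, namely those 15 and 4 of the 29. The chains that carried most of the collagen transcripts were COL4A1, COL4A2, COL4A5 and COL4A6 of the basement membrane, the short-chain COL8A1, the fibril-associated COL12A1 and the transmembrane COL17A1. Several chains of the classical interstitial fibres were nearly absent, while COL1A1 had 132, 184 and 19 counts over all control, MCF10A-TRAM2 and MCF10A-YAP5SA libraries and COL5A2 had 123, 258 and 106. COL1A2 had 5, 3 and 0 counts in all of control, MCF10A-TRAM2 and MCF10A-YAP5SA, COL3A1 had 0, 1 and 4, and COL2A1 had 0, 2 and 0. Levels are of the whole culture, in which fewer cells of a type and less RNA per cell cannot be told apart.

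In MCF10A-YAP5SA against control, 9 of the 19 tested collagen genes were higher, 6 were lower and 4 were not called. A gene was called where edgeR's adjusted p was under 0.05 and the log2 fold change was over 0.5 in size. Among all 15768 genes tested, 15.3% were higher and 14.1% were lower by the same rule. The median log2 fold change was 0.54 over the 19 collagen genes and -0.01 over all genes tested. Outside MCF10A-YAP5SA, COL4A3 stood at most at 0.189 CPM and COL27A1 at most at 0.828 CPM. Both passed the filter on low counts through the MCF10A-YAP5SA samples, where they are high. Their calls as higher, and their part in the median, were thus favoured by the filter. COL6A2, COL16A1, COL1A1 and COL28A1 had 13, 14, 19 and 2 counts over the MCF10A-YAP5SA libraries. They passed the filter through control and MCF10A-TRAM2, where they are higher, so their calls as lower were favoured likewise. The sample values of all 19 genes did not overlap between MCF10A-YAP5SA and control, which with 2 samples each says little on its own. The share of all genes without overlap was not computed. An unadjusted p under 0.05 by edgeR was reached by 53.9% of all genes tested. The genes that rose were COL4A1, COL4A2, COL4A3, COL4A4 and COL4A5, with COL8A1, COL12A1, COL13A1 and COL27A1. Those that fell were COL7A1, COL17A1, COL6A2, COL16A1, COL1A1 and COL28A1. These directions are set out gene by gene in the plots of CPM by sample and of log2 fold change.

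**Figure D1:**
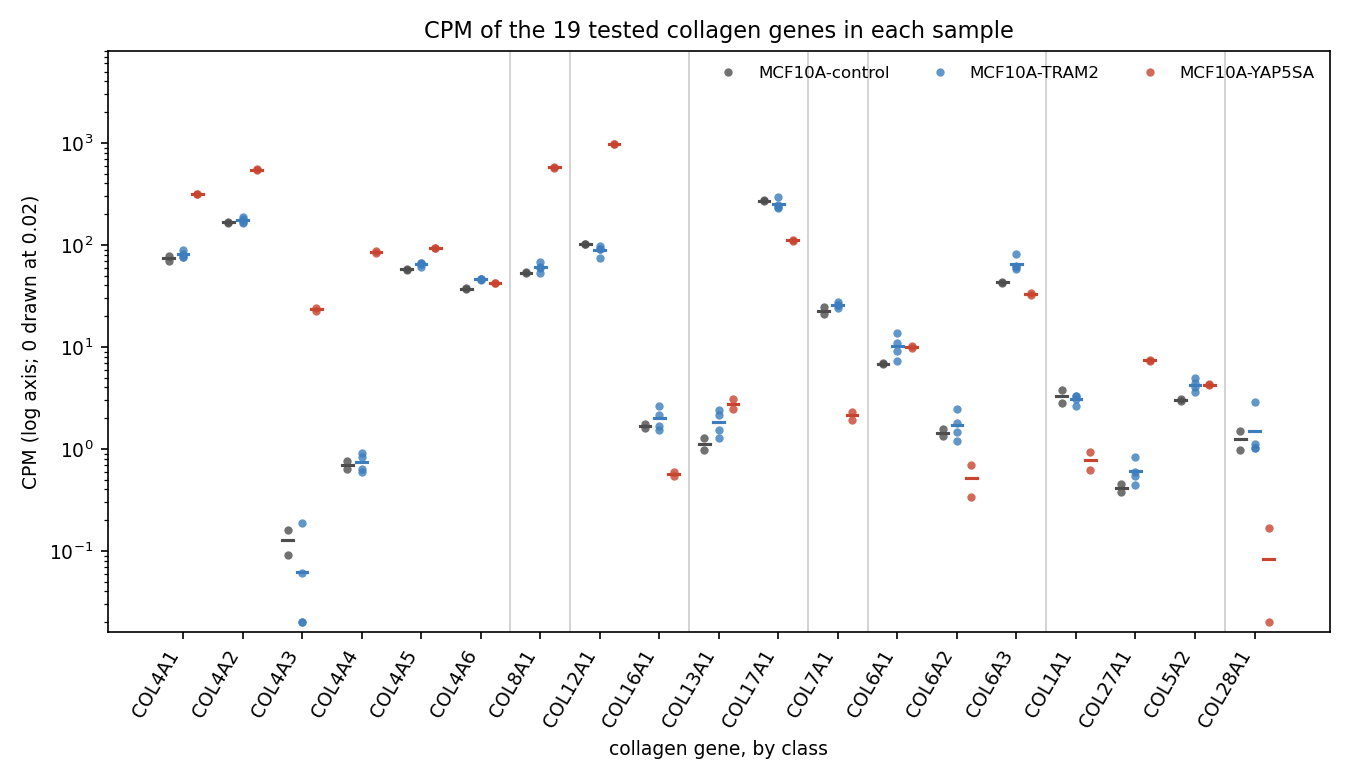
Levels of the 19 tested collagen genes as TMM-scaled CPM on a log axis, with values of 0 drawn at the foot, and genes ordered along the horizontal axis by class (vertical lines). Each point is 1 of the 8 samples, coloured by group, and short bars are group means; the MCF10A-YAP5SA points of COL4A3 and COL4A4 lie far above those of both other groups, and those of COL7A1 far below.

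**Figure D2:**
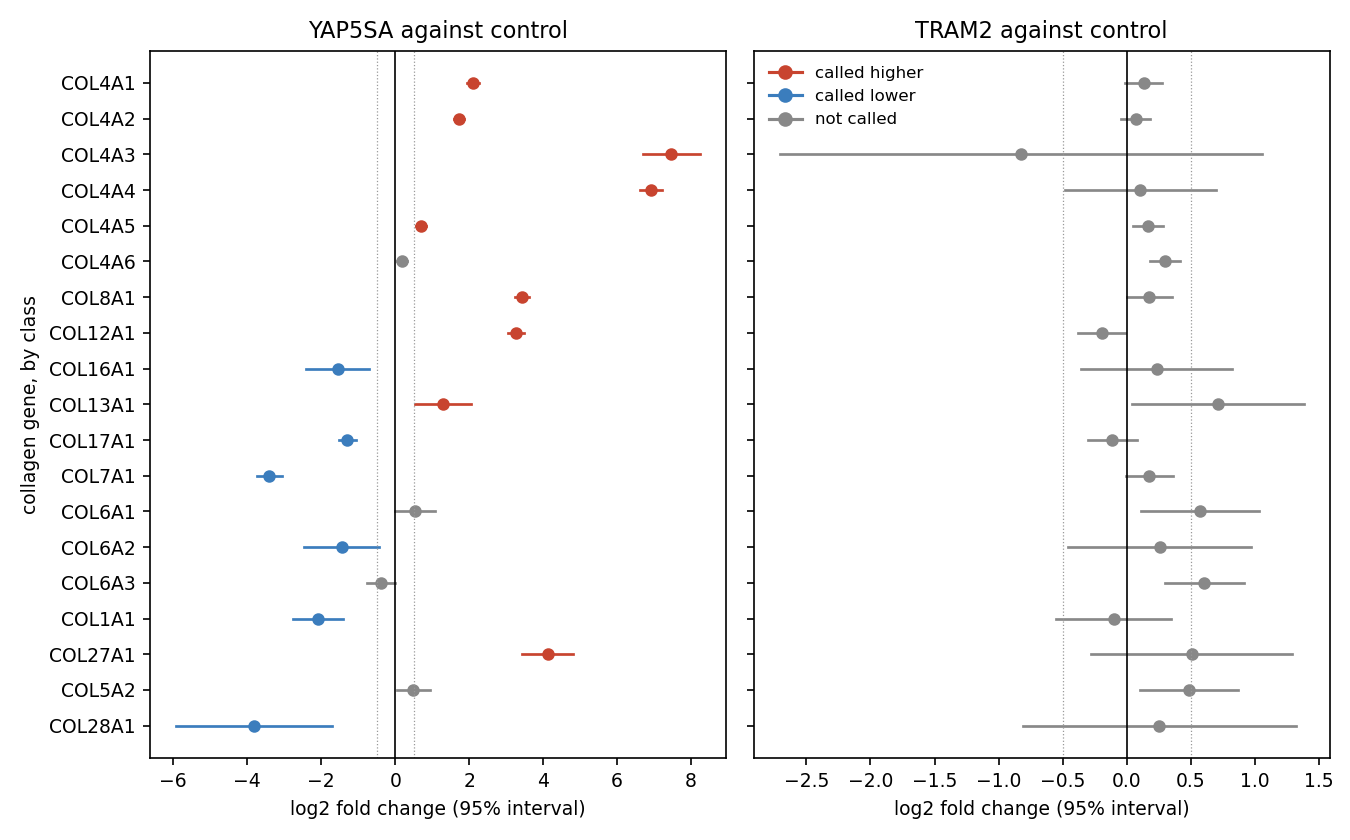
The log2 fold change of each tested collagen gene with its 95% interval from the edgeR fit, for MCF10A-YAP5SA against control on the left and MCF10A-TRAM2 against control on the right, where the horizontal scales differ. Dotted lines mark 0.5 in either direction; 9 genes were called higher and 6 lower on the left, and 0 genes were called on the right.

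The type IV genes rose except COL4A6, which was past the test only below the size limit. The 6 genes lie in the genome as 3 pairs that start close to each other and run in opposite directions, so the stretch between their starts is shown for each pair, followed by the upstream bases of COL12A1, which alone among the 15 tested collagen genes with a promoter window has a TEAD motif there. Sequences are from the RefSeq annotation of GRCh38.p14, written on the plus strand for the pairs and on the minus strand, that of the gene, for COL12A1. Capitals mark matches to GGGCGG (the GC box bound by SP1), CCAAT (the box bound by NF-Y) and CATTCC (the motif of TEAD proteins), on either strand. The starts of COL4A1 and COL4A2 are 127 bases apart on chromosome 13, and the whole stretch between them is given as chr13:110307158-110307283. The starts of COL4A4 and COL4A3 are 419 bases apart on chromosome 2, and the part nearest to COL4A3, outside the annotated COL4A4 gene, is given as chr2:227164489-227164623. The starts of COL4A6 and COL4A5 are 380 bases apart on chromosome X, and the 250 bases before COL4A5 are given as chrX:108439588-108439837. The 250 bases before COL12A1 are chr6:75206054-75206303.
COL4A1 to COL4A2: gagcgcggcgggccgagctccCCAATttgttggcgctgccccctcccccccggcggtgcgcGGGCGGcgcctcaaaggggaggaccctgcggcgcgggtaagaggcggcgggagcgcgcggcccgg
COL4A4 to COL4A3: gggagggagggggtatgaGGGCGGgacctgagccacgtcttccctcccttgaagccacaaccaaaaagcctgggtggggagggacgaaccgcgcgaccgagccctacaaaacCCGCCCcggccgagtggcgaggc
COL4A6 to COL4A5: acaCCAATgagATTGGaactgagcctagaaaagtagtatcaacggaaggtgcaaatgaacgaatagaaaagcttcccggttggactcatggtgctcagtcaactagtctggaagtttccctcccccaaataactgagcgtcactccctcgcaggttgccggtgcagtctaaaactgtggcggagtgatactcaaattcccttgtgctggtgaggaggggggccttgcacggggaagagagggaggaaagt
COL12A1: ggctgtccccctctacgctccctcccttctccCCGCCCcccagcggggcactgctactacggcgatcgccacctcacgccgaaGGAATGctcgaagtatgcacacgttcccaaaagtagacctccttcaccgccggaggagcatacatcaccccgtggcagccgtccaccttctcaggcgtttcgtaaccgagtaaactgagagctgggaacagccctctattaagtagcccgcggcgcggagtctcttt

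The 3 stretches shown for the type IV genes differ in these letters and in length, at 126, 135 and 250 bases. Those before COL4A3 and COL4A5 are only parts of what lies between the starts. The COL4A1 to COL4A2 stretch holds 1 GC box and 1 CCAAT box, the COL4A3 stretch holds 2 GC boxes and no CCAAT box, and the COL4A5 stretch holds 2 CCAAT boxes in opposite orientation and no GC box. None of the 3 holds CATTCC or TGANTCA, the motif of AP-1, on either strand. The 250 bases upstream of the COL4A6 start nearest to COL4A5, which reach beyond the part shown, hold 3 CCAAT boxes. The COL12A1 window holds the TEAD letters in reverse orientation (GGAATG), starting at base 84 of the window. Promoter windows were matched by symbol for 32 of the 44 collagen genes, which have 44 windows, and for 15 of the 19 tested. COL8A1, COL6A1, COL1A1 and COL5A2 were not searched. CATTCC lay in 3 of those 44 windows (6.82%) against 11.9% of the 35116 windows of all genes, TGANTCA in 1 (2.27%) against 6.57%, GGGCGG in 24 (54.5%) against 42.6%, and CCAAT in 12 (27.3%) against 32.0%. A match describes letters in 250 bases upstream of an annotated start and says nothing of binding, and elements farther away were not searched.

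The most common basement membrane molecule winds together COL4A1 and COL4A2 chains. COL4A1 stood at 77.43 and 69.98 CPM in control, at 76.28, 89.61, 80.53 and 76.50 in MCF10A-TRAM2 and at 317.8 and 317.1 in MCF10A-YAP5SA. COL4A2 stood at 167.8 and 164.7 CPM in control, at 163.1, 185.6, 180.6 and 169.2 in MCF10A-TRAM2 and at 539.7 and 552.8 in MCF10A-YAP5SA. Both MCF10A-YAP5SA samples were thus above all other samples for both genes. The log2 fold changes against control were 2.11 ± 0.07 (SE, adjusted p = 3.14e-11 by edgeR) for COL4A1 and 1.72 ± 0.06 (adjusted p = 2.05e-11) for COL4A2. The ratio of COL4A1 to COL4A2 in TPM was 0.317 ± 0.12 in control (SD, n = 2), 0.329 on average in MCF10A-TRAM2 and 0.386 in MCF10A-YAP5SA, and the ranges of the groups overlapped. In CPM the ratio was 0.461 and 0.425 in control, 0.446 to 0.483 in MCF10A-TRAM2 and 0.589 and 0.574 in MCF10A-YAP5SA, so on that scale the last group lay above the others without overlap. COL4A2 nevertheless remained the chain with the higher TPM in every sample.

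The COL4A3 and COL4A4 chains join COL4A5 in the specialised basement membranes of kidney glomerulus, lung and inner ear. COL4A3 had 5 counts over all control libraries, 4 over all MCF10A-TRAM2 libraries and 577 over both MCF10A-YAP5SA libraries. Its CPM was 0.092 and 0.162 in control, 0, 0, 0.061 and 0.189 in MCF10A-TRAM2, and 24.3 and 22.3 in MCF10A-YAP5SA. COL4A4 had 28, 45 and 2097 counts in these groups. Its CPM was 0.641 and 0.754 in control, between 0.596 and 0.908 in MCF10A-TRAM2, and 82.57 and 86.32 in MCF10A-YAP5SA. For both genes the groups were separated by a wide gap, and they had the largest log2 fold changes of the 19 collagen genes against control, at 7.47 ± 0.36 for COL4A3 (SE, adjusted p = 4.54e-10 by edgeR) and 6.91 ± 0.14 for COL4A4 (adjusted p = 8.63e-14). The size for COL4A3 rests on the few control counts, whereas that for COL4A4 rests on more. In TPM the levels reached in MCF10A-YAP5SA were modest, at 4.28 for COL4A3 and 6.16 for COL4A4, below the 19.6 of COL4A5, their partner chain. Short transcripts took part of this, 1.37 TPM on a 524-base retained-intron transcript of COL4A3 and 2.595 on a 1047-base transcript of COL4A4. In CPM per kilobase of the longest protein-coding transcript the levels were 2.88 for COL4A3, 8.43 for COL4A4 and 14.5 for COL4A5.

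COL4A5 and COL4A6 sit on the X chromosome, and their products occur together in epithelial basement membranes. COL4A5 stood at 57.07 and 58.51 CPM in control, between 60.68 and 67.12 in MCF10A-TRAM2 and at 93.92 and 93.75 in MCF10A-YAP5SA, a log2 fold change of 0.70 ± 0.06 (SE, adjusted p = 2.80e-07 by edgeR) for the last group against control. COL4A6 stood at 37.39 and 37.06 CPM in control, at 46.26, 46.39, 44.87 and 45.82 in MCF10A-TRAM2 and at 42.55 and 42.12 in MCF10A-YAP5SA. The differences in COL4A6 were small and very even between samples, with a log2 fold change of 0.19 ± 0.06 in MCF10A-YAP5SA (adjusted p = 0.0284), under the size limit. In TPM, the ratio of COL4A5 to COL4A6 was 3.89 ± 0.738 in control (SD, n = 2), 3.53 on average in MCF10A-TRAM2, and 5.43 and 6.01 in the MCF10A-YAP5SA samples, which lay above all others. On chromosomes 13 and 2 both genes of the pair were called higher, and on X only COL4A5 was; the difference between partners was not tested.

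COL8A1 encodes a short-chain collagen of the matrix around vessels and of the membrane under the corneal endothelium, and COL12A1 encodes a large fibril-associated chain that bridges fibres and other matrix proteins. COL8A1 stood at 54.51 and 52.69 CPM in control, at 52.74, 68.62, 60.67 and 59.96 in MCF10A-TRAM2 and at 570.9 and 576.7 in MCF10A-YAP5SA. COL12A1 stood at 101.4 and 102.0 CPM in control, at 74.64, 90.92, 97.91 and 90.89 in MCF10A-TRAM2 and at 982.5 and 984.9 in MCF10A-YAP5SA. These were the highest CPM values of any collagen gene in any group. COL8A1 rose 10.7-fold in MCF10A-YAP5SA (log2 fold change 3.42 ± 0.09, SE, adjusted p = 2.15e-11 by edgeR) and COL12A1 rose 9.67-fold (3.27 ± 0.10, adjusted p = 5.71e-10). COL8A2, the partner chain of COL8A1, had 1, 1 and 0 counts in control, MCF10A-TRAM2 and MCF10A-YAP5SA.

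The TPM of COL8A1 behaved differently from its counts. It was 37.5 and 19.9 in control, 9.62, 36.3, 34.6 and 30.8 in MCF10A-TRAM2, and 210.9 and 202.6 in MCF10A-YAP5SA. Across control and MCF10A-TRAM2 samples the largest TPM was 3.90 times the smallest, against 1.302 times for CPM. Most of this spread came from 1 transcript of 190 bases typed as lncRNA, which was given 28.7 and 12.0 TPM in control, 0, 25.8, 24.2 and 20.7 in MCF10A-TRAM2, and 121.4 and 111.9 in MCF10A-YAP5SA. This short transcript held more of the gene's TPM in MCF10A-YAP5SA than the protein-coding transcripts did, although lncRNA-typed transcripts held only 3.81% of the gene's counts there. With protein-coding transcripts alone, COL8A1 and the other short-chain genes summed to 7.20 ± 0.746 TPM in control (SD, n = 2), 9.02 ± 0.253 in MCF10A-TRAM2 (n = 4) and 79.9 ± 0.292 in MCF10A-YAP5SA (n = 2). The rise in MCF10A-YAP5SA was thus present on each scale, and differences in COL8A1 TPM between the other samples rest on the short transcript.

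**Figure D3:**
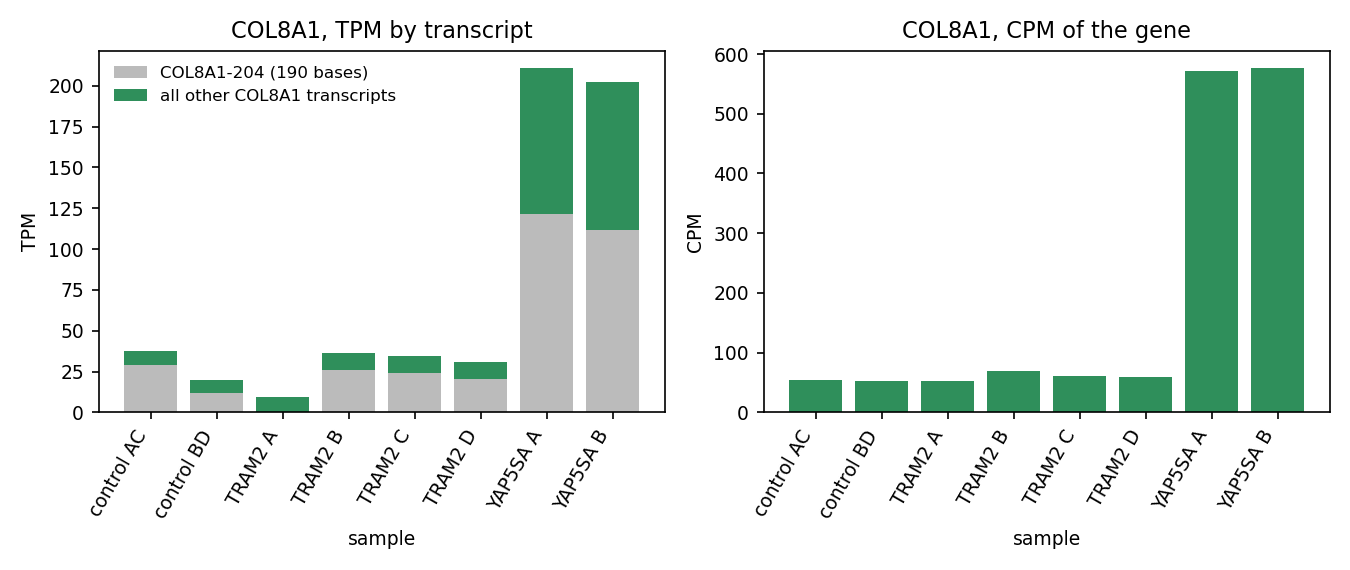
COL8A1 in each of the 8 samples (horizontal axis), as TPM on the left, with the 190-base transcript in grey and all other transcripts of the gene in green, and as TMM-scaled CPM of the whole gene on the right. The grey part runs from 0 to 28.7 TPM over the control and MCF10A-TRAM2 samples, whose CPM stays between 52.69 and 68.62, and both MCF10A-YAP5SA samples are highest on either scale.

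COL13A1 and COL27A1 rose from low levels. COL13A1, a transmembrane collagen of cell junctions, stood at 1.281 and 0.970 CPM in control, at 1.266, 1.519, 2.422 and 2.146 in MCF10A-TRAM2 and at 2.438 and 3.097 in MCF10A-YAP5SA, a log2 fold change of 1.29 ± 0.35 for the last group (SE, adjusted p = 0.00700 by edgeR). Without control B and D it gave 1.12 (adjusted p = 0.0611) and without MCF10A-YAP5SA B 1.11 (adjusted p = 0.0697), so the call was lost with 1 sample left in a group while the size stayed near. COL27A1, a fibril-forming chain of cartilage, stood under 1 TPM in every group, with 0.377 and 0.458 CPM in control, 0.442 to 0.828 in MCF10A-TRAM2 and 7.315 and 7.510 in MCF10A-YAP5SA (4.12 ± 0.32, adjusted p = 8.62e-08). The transcripts behind COL27A1 varied, on few counts outside MCF10A-YAP5SA. In control 82.7% of its 17.3 estimated counts fell on lncRNA-typed transcripts, against 44.9% of 36.3 in MCF10A-TRAM2 and 1.63% of 183.9 in MCF10A-YAP5SA. Protein-coding transcripts took 11.5%, 55.1% and 61.5% in these groups, and 16.7 to 77.7% in single MCF10A-TRAM2 libraries.

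The collagen genes that tie epithelium to its basement membrane went the other way. COL17A1, the transmembrane collagen of the hemidesmosome, stood at 270.2 and 273.5 CPM in control, at 234.6, 293.0, 247.4 and 230.6 in MCF10A-TRAM2 and at 109.5 and 112.6 in MCF10A-YAP5SA. COL7A1, which builds the anchoring fibrils beneath it, stood at 24.35 and 20.90 CPM in control, at 25.70, 25.61, 27.25 and 23.86 in MCF10A-TRAM2 and at 1.934 and 2.323 in MCF10A-YAP5SA. Both genes were lower in both MCF10A-YAP5SA samples than in every other sample. COL17A1 fell by 1.29 ± 0.10 on the log2 scale (SE, adjusted p = 4.30e-06 by edgeR) and COL7A1 by 3.40 ± 0.16 (adjusted p = 2.87e-10). The summed epithelial markers fell in the same samples, as given above, and their part in these results was not tested. The other hemidesmosome genes did not fall as a group. Of 8 tested, 2 were higher, 1 was lower and 5 were not called, where 15.3% of all genes tested were higher and 14.1% lower. DST was higher, at 504.4 and 524.0 CPM in control and 1186 and 1221 in MCF10A-YAP5SA (1.23 ± 0.05, adjusted p = 2.03e-10 by edgeR). CD151 was higher, at 0.54, and ITGA6, the integrin chain of the complex, was lower, at -0.53. The median of the 8 was 0.04.

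Type VI collagen is assembled from COL6A1, COL6A2 and a further chain, most often COL6A3. COL6A1 stood at 6.911 and 6.734 CPM in control, at 10.80, 13.67, 9.083 and 7.259 in MCF10A-TRAM2 and at 10.17 and 9.755 in MCF10A-YAP5SA. COL6A2 stood at 1.327 and 1.562 CPM in control, at 1.788, 2.485, 1.453 and 1.199 in MCF10A-TRAM2 and at 0.336 and 0.697 in MCF10A-YAP5SA. COL6A3 stood at 43.48 and 42.40 CPM in control, at 60.79, 81.53, 61.58 and 57.69 in MCF10A-TRAM2 and at 33.72 and 32.44 in MCF10A-YAP5SA. The 3 chains did not move together in MCF10A-YAP5SA: COL6A2 fell by 1.45 ± 0.48 on the log2 scale (SE, adjusted p = 0.0209 by edgeR), while COL6A1 gave 0.54 ± 0.24 (adjusted p = 0.0905) and COL6A3 gave -0.38 ± 0.17 (adjusted p = 0.0965), neither of them called. COL6A1 was called higher with the compared groups only (0.54, adjusted p = 0.00144), in the first run alone (0.59, adjusted p = 0.0133), with 10 separate libraries (0.55, adjusted p = 0.0320) and without MCF10A-TRAM2 library B (0.54, adjusted p = 0.0112) or D (0.55, adjusted p = 0.0228). The COL6A2 call rests on 13 counts in MCF10A-YAP5SA against 58 in control, and it was lost with DESeq2, with protein-coding transcripts alone, in the first run alone and without either control B and D or MCF10A-YAP5SA A.

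The other genes that fell, COL16A1, COL1A1 and COL28A1, had low levels throughout. COL16A1, a fibril-associated chain, stood at 1.739 and 1.616 CPM in control, at 2.607, 2.140, 1.695 and 1.515 in MCF10A-TRAM2 and at 0.589 and 0.542 in MCF10A-YAP5SA (-1.56 ± 0.40, SE, adjusted p = 0.00472 by edgeR). COL1A1, the main chain of type I fibres, stood at 2.837 and 3.771 CPM in control, between 2.604 and 3.282 in MCF10A-TRAM2 and at 0.925 and 0.619 in MCF10A-YAP5SA (-2.09 ± 0.32, adjusted p = 6.99e-05). Its partner COL1A2 was close to 0 counts in all groups, so the transcripts of the type I heterotrimer were not present in the usual proportion. COL28A1, a von Willebrand domain collagen grouped with no other class, had 51 counts in control and 2 in MCF10A-YAP5SA, a depth-scaled ratio of 0.0603 (95% interval 0.00711 to 0.229, counting error only). COL16A1 and COL28A1 were no longer called when protein-coding transcripts alone were used, and COL28A1 not without MCF10A-YAP5SA B.

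Among the genes not called against control, COL5A2, a chain that nucleates type I fibres, stood at 3.112 and 2.963 CPM in control, 3.650 to 4.905 in MCF10A-TRAM2 and 4.204 and 4.335 in MCF10A-YAP5SA, with a log2 fold change of 0.49 ± 0.21 (SE, adjusted p = 0.0677 by edgeR) for the last group. It was called with 10 separate libraries (0.50, adjusted p = 0.0476). Its partner COL5A1 had 3, 10 and 2 counts. The 25 untested genes had at most 20 counts in any group and at most 0.241 TPM in any group mean. The highest of the multiplexins, the collagens whose tails are cut to endostatin-like fragments, was COL18A1, with 7, 20 and 13 counts. There were 7 genes with 0 counts in every library, namely COL6A6, COL10A1, COL11A1, COL15A1, COL23A1, COL25A1 and COL26A1, which allows at most 3 counts per group, or 0.0749, 0.0506 and 0.115 CPM in control, MCF10A-TRAM2 and MCF10A-YAP5SA.

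Summed over all 44 genes, collagen transcripts made up 191.8 ± 9.05 TPM in control (SD, n = 2), 188 ± 16.8 in MCF10A-TRAM2 (n = 4) and 539.6 ± 6.38 in MCF10A-YAP5SA (n = 2). The MCF10A-YAP5SA sum was 2.81 times that of control, and the MCF10A-TRAM2 sum was 0.981 times, within the spread between samples. As a share of counts, collagen genes took 0.0836 to 0.0873% of the control libraries, 0.0846 to 0.0993% of the MCF10A-TRAM2 libraries and 0.269 and 0.272% of the MCF10A-YAP5SA libraries. The ratio between MCF10A-YAP5SA and control was 2.52 over protein-coding transcripts and 2.94 in CPM per kilobase of the longest protein-coding transcript.

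The make-up of that sum shifted between classes. Transmembrane collagens, nearly all of it COL17A1, made up 44.2% of collagen TPM in control and 6.53% in MCF10A-YAP5SA. Short-chain collagens, here COL8A1, went from 14.8% to 38.3%, and fibril-associated collagens, here COL12A1, from 8.12% to 24.1%. Type IV chains kept a close share, at 26.7% and 29.3%, while their sum rose 3.09-fold. Type VI went from 3.84% to 1.41% and type VII from 1.46% to 0.0246%. On the scale of CPM per kilobase, which is free of the short COL8A1 transcript, transmembrane collagens went from 38.0% to 5.47%, short-chain collagens from 7.32% to 26.6%, fibril-associated collagens from 7.04% to 22.3%, and type IV chains from 40.0% to 43.6%. In order of CPM per kilobase, control cells had COL17A1 (48.5) first, followed by COL4A2 (25.6), COL4A1 (11.3), COL8A1 (9.40), COL4A5 (8.91) and COL12A1 (8.67), whereas MCF10A-YAP5SA cells had COL8A1 (100.6), COL4A2 (84.1), COL12A1 (83.9), COL4A1 (48.5) and then COL17A1 (19.8). The samples of COL4A2 (83.1 and 85.1) and COL12A1 (83.8 and 84.0) overlapped in MCF10A-YAP5SA, so their order there is not set, while the neighbours of the control order did not overlap between samples.

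**Figure D4:**
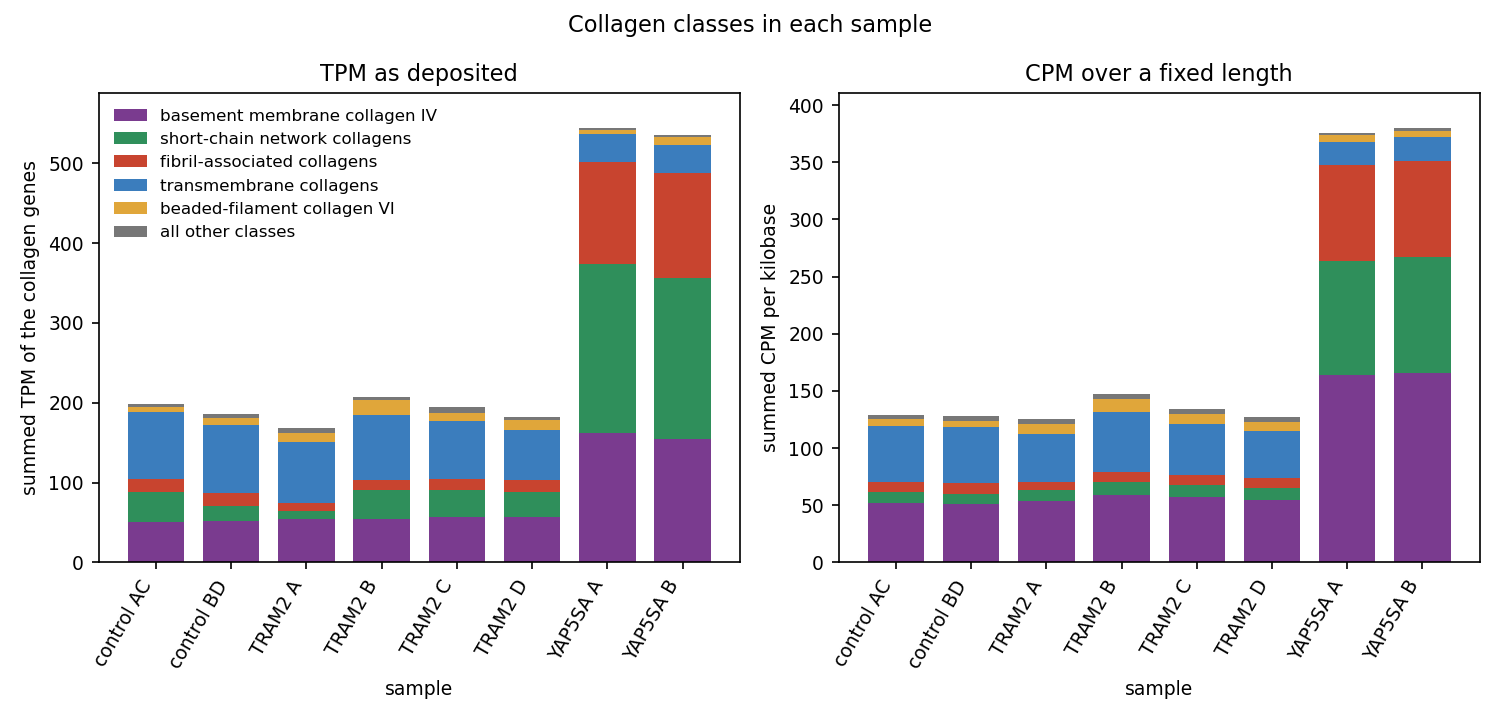
Stacked collagen transcript levels by class in each of the 8 samples, as summed TPM on the left and as summed CPM per kilobase of the longest protein-coding transcript on the right. On the right, the short-chain and fibril-associated classes take 26.6% and 22.3% of the sum in MCF10A-YAP5SA, against 7.32% and 7.04% in control, and the transmembrane class goes from 38.0% to 5.47%.

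In MCF10A-TRAM2 against control, 0 of the 19 collagen genes were called in either direction by edgeR, while 0.0317% of all genes were higher and 0.0254% lower. At an unadjusted p under 0.05 there were 8 collagen genes, against 1994 of all 15768 genes. The median log2 fold change was 0.18 over the 19 genes, 15 of which were above 0. Over all genes tested the median was -0.0008 and 49.7% were above 0. TRAM2 itself, at 3.90 ± 0.45 (SE), had an adjusted p of 0.0725 in this edgeR fit. The adjusted p was 0.0418 without MCF10A-TRAM2 library B, 0.0289 without C, and 4.61e-26 with DESeq2. By edgeR it was 0.136 without library D, 0.153 with the compared groups only and 0.195 in the second run alone. The small number of calls thus holds even for the gene on the vector, and a missed threshold does not show that levels were equal. DESeq2 called COL6A3 alone of the collagen genes. COL4A5, COL4A6, COL6A1, COL6A3 and COL5A2 were higher in every MCF10A-TRAM2 sample than in both control samples, and COL12A1 was lower. How many of all genes were separated in this way was not computed.

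Type VI chains gave the widest of these differences. COL6A3 was above both control samples in all 4 MCF10A-TRAM2 samples, with a log2 fold change of 0.61 ± 0.13 (SE, adjusted p = 0.138 by edgeR). It was 0.72 in the first run and 0.49 in the second, and 0.48 without library B, the one with the highest value. COL6A1 gave 0.57 (adjusted p = 0.291), with 0.89 in the first run and 0.21 in the second. Summed over type VI, CPM per kilobase was 6.02 ± 0.0524 in control (n = 2) and 8.99 ± 1.78 in MCF10A-TRAM2 (n = 4), a ratio of 1.49, and the class took 6.70% of the collagen sum against 4.69%. COL4A6 gave 0.30 ± 0.05 (adjusted p = 0.0520). COL5A2 gave 0.49, with 0.15 in the first run and 0.88 in the second, and COL13A1 gave 0.71, with -0.06 in the first run and 1.59 in the second, so for both the second run carried the difference. COL12A1 gave -0.20 (adjusted p = 0.371), COL8A1 0.18 (adjusted p = 0.389) and COL4A4 0.11, for which the interval ran from -0.48 to 0.69.

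In MCF10A-YAP5SA against MCF10A-TRAM2, which shares the MCF10A-YAP5SA samples with the comparison above, 8 of 19 collagen genes were higher and 7 were lower, where 14.9% and 14.6% of all genes were. COL4A3 and COL27A1 are among the higher ones and were again tested through the MCF10A-YAP5SA samples. COL6A2, COL16A1, COL1A1 and COL28A1 are among the lower ones and were again tested through the other groups. COL6A3 was lower here, by -0.98 ± 0.15 (SE, adjusted p = 6.21e-04 by edgeR), and was not called against control. COL4A6, COL6A1, COL5A2 and COL13A1 were not called. COL8A1 gave 3.24 ± 0.07, COL12A1 3.47 ± 0.08, COL4A4 6.81 ± 0.11 and COL7A1 -3.58 ± 0.15. COL4A3 gave 8.29 ± 0.32, against the 7.47 relative to control, both on very few counts in the group of comparison.

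Collagen chains are modified, folded, exported and cross-linked by dedicated proteins, and these were examined in lists written from general knowledge. Of 13 tested genes for hydroxylation and glycosylation of the chains, 6 were higher in MCF10A-YAP5SA than in control and 1 was lower, with a median log2 fold change of 0.36, where 15.3% of all genes tested were higher and 14.1% lower. PLOD2, a lysyl hydroxylase whose product sets the type of cross-link, stood at 99.88 and 100.3 CPM in control and at 527.0 and 534.1 in MCF10A-YAP5SA (2.41 ± 0.08, SE, adjusted p = 2.02e-10 by edgeR). The prolyl 3-hydroxylases did not move together, as P3H3 (4.02) and P3H1 (1.74) rose while P3H2 fell by 1.52 on the log2 scale. Of 11 tested genes for folding and export, 7 were higher and 1 was lower (all genes 15.3% and 14.1%), with a median of 0.62. These included TRAM2 (3.10), SEC24D of the vesicle coat that carries procollagen (2.07) and TRAM1 (1.37), while MIA2, a cargo receptor at exit sites, fell by 1.34.

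Of 9 tested genes for propeptide cleavage and cross-linking, 5 were higher and 2 were lower (all genes 15.3% and 14.1%), with a median of 0.51. LOXL2, LOXL1 and LOX, oxidases that start the cross-links between chains, gave 2.51, 2.58 and 1.52, and LOXL2 stood at 67.41 and 72.46 CPM in control against 398.8 and 398.0 in MCF10A-YAP5SA. PCOLCE2, an enhancer of propeptide cleavage, fell by 1.16 on the log2 scale, a direction that turned to 0.67 with protein-coding transcripts alone. Of 8 tested collagen receptors, 3 were higher and 3 were lower (all genes 15.3% and 14.1%), with a median of -0.19. ITGA1, a collagen-binding integrin chain, rose by 2.05, while the receptor tyrosine kinase DDR1 fell by 1.40 and ITGA10 fell by 1.37. ADGRG1, an adhesion receptor for type III collagen, fell by 4.16, from 56.57 and 54.36 CPM to 3.027 and 3.174. Of 3 tested collagen-cleaving proteases 1 was lower (all genes 14.1%), MMP2, from 8.009 and 7.488 CPM to 0.168 and 0.310. MMP2 passed the filter on low counts through the other groups, where it is higher. In MCF10A-TRAM2 against control, 0 genes of these lists, TRAM2 included, were called by edgeR, with an unadjusted p under 0.05 for 3 of the modifying, 4 of the export, 1 of the cross-linking, 4 of the receptor and 1 of the protease genes, where 12.6% of all genes had one. Among them, P3H2 had -0.43 (adjusted p = 0.0725), LOXL2 had 0.40 (adjusted p = 0.0643) and ITGA1 had 0.54 (adjusted p = 0.0520).

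Markers of fibroblasts, endothelium and leukocytes were examined in the same way. Of 7 fibroblast markers only FAP was tested, at 69.11 and 72.46 CPM in control, 76.36 to 92.57 in MCF10A-TRAM2 and 91.74 and 96.11 in MCF10A-YAP5SA (0.41 ± 0.08, SE, adjusted p = 8.96e-04 by edgeR, under the size limit), while DCN, LUM, PDGFRA and THY1 were at or near 0. Of 3 tested endothelial markers PECAM1 was lower, from 7.689 and 7.704 CPM to 0.336 and 0.155, and TEK was higher (all genes 14.1% lower and 15.3% higher). TEK stood at 0.183 and 0.054 CPM in control, 0 to 0.552 in MCF10A-TRAM2, and 0.757 and 0.929 in MCF10A-YAP5SA. It passed the filter on low counts through the last group, so its call as higher was favoured by the filter. Of 5 leukocyte markers 1 was tested, CD14, which fell by 3.63 on the log2 scale, from 1.876 and 2.317 CPM to 0.0841 and 0.232. PECAM1 and CD14 passed the filter through the other groups, where they are higher. These markers moved in the same samples as the collagen genes, and their part in the results was not tested.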

How the data were processed

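Reads were trimmed by the authors (cutadapt) and assigned to transcripts with Salmon, per the study's methods and the submitters' processing notes. Tool versions, the build and the strand setting of the counting are not given in sources used here, and only the study's methods call the library kit stranded. The authors deposited estimated counts, often fractional, and TPM per transcript and library. Here both were summed per gene, counts were rounded, and edgeR 4.0.16 (R 4.3.3, limma 3.58.1) fitted all 3 groups over genes passing filterByExpr (15768), with TMM scaling, a robust quasi-likelihood test and Benjamini-Hochberg adjustment over all tested genes. The standard error is the log2 fold change over the root of F. Control A with C and B with D were summed, and their TPM averaged. Depth per sample stands in the report, and intervals on counts cover counting error only. The fit was also run on counts simulated from its own fitted dispersions with known changes planted. Such counts cannot address whether libraries are separate cultures, the overlap of run and group, or how reads were assigned.

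Alternatives were DESeq2 1.42.0, no filter on low counts, library totals without TMM, size factors of the DESeq2 kind in edgeR, a fit of the compared groups only, 10 separate libraries, a replicate block, protein-coding transcripts alone, each run alone and leaving out each sample. CPM per kilobase was added after the data were seen. Values per sample are given for collagen genes called in any comparison with a mean of at least 1 TPM in 1 group and, in a class with none, for its highest gene. Of each list, up to 4 called genes with the largest change and at least 5 CPM in the higher group are named; others named were chosen after their values were seen. Collagen genes and lists were chosen with earlier results of these data known.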

Additional observations from a re-analysis of the deposited data

Results flagged for a closer look

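Among the 4 MCF10A-TRAM2 samples, the gap between the most extreme sample and its nearest neighbour, as a share of the range, was computed for 20 measures, and 2 passed the 95% limit of Dixon's ratio, where chance gives about 1 in 20. COL6A3, a type VI chain, gave 0.837, since library B stood at 81.53 CPM and the others at 60.79, 61.58 and 57.69. COL28A1 gave 0.95, since library A stood at 2.905 CPM and the others at 1.105, 1.029 and 1.010.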

How the results depend on the processing

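In MCF10A-YAP5SA against control the number of lower collagen genes went from 6 to 3 with protein-coding transcripts alone. Leaving out 1 sample at a time gave 8 to 10 higher and 5 to 6 lower genes there, 8 higher and 6 to 7 lower against MCF10A-TRAM2, and 0 in MCF10A-TRAM2 against control. The last comparison gave 1 higher gene with DESeq2, 10 separate libraries or the second run alone (COL13A1), and 2 with no filter (COL6A1 and COL6A3). Letters A to D gave no sign of pairing (correlations of deviations between same-letter libraries of -0.03 to 0.035), and a replicate block gave 1 higher gene, COL6A3 (0.61, adjusted p = 0.00586 by edgeR), with 9 and 6 calls against control and 8 and 7 against MCF10A-TRAM2 as without it. Protein-coding transcripts alone gave summed TPM of 127.2, 124.3 and 320.8 in control, MCF10A-TRAM2 and MCF10A-YAP5SA and a ratio of 2.52, and turned PCOLCE2 to 0.665.

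Some directions turned, among them that of COL13A1, which was 0.71 with all samples. In MCF10A-TRAM2 against control, the first run alone gave COL13A1 -0.05514, COL1A1 0.004463 and COL4A4 -0.1117, and the second gave COL16A1 -0.4164, COL28A1 -0.5915 and COL6A2 -0.2902. In MCF10A-YAP5SA against MCF10A-TRAM2, COL5A2 gave -0.08942 with library totals, -0.02301 with no filter, -0.001443 with the replicate block and -0.02246 with protein-coding transcripts. With 1 sample left out, values ran from -0.2954 to 0.1131 for COL1A1, -0.252 to 0.6221 for COL28A1 and -0.01454 to 0.2212 for COL4A4 against control, and from -0.06047 to 0.07974 for COL5A2 and -0.1611 to 0.1456 for COL6A1 against MCF10A-TRAM2. The causes were not tested. Library totals shifted the median of all genes by -0.09 in MCF10A-YAP5SA against control. With 2 control and 2 MCF10A-YAP5SA samples, low-count genes such as COL28A1 and COL6A2 are the least certain.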
